A study of Solanum lycopersicum with 2 samples.

Results

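The SlWUS peaks on tomato chromosome 4 are the 5680 intervals placed on that chromosome of the SL4.0 assembly, out of 65452 peaks in the list. They were chosen by chromosome alone, so neither their strength nor their width played a part. The other 11 numbered chromosomes held 59766 peaks and serve for comparison, and 6 peaks on unplaced sequence were left aside. The peaks come from DNA affinity purification sequencing (DAP-seq), in which a tagged transcription factor made outside the plant pulls fragments out of a library of bare genomic DNA. Its 2 samples are from greenhouse-grown Ailsa Craig, a tomato (Solanum lycopersicum) cultivar: a library titled WUSCHEL, called SlWUS here as in the series title, and a library titled WUSCHEL_input. Both samples carry the labels flower abscission zone and Halo, and HaloTag is a protein tag common in DAP-seq. With 1 library of each kind and a peak list of the first only, there is no spread between replicates.

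WUSCHEL is a homeodomain transcription factor. In Arabidopsis it is made in the organising centre of the shoot meristem and keeps the overlying cells as stem cells, while the secreted peptide CLV3 limits its expression. Tomato chromosomes have gene-rich euchromatin towards their ends and a large block of repeat-rich heterochromatin around the centromere. DAP-seq reads the affinity of a protein for DNA without chromatin, so peaks in heterochromatin can be recovered that the protein may not reach in a cell. The question addressed by the peak list is where, and how strongly, SlWUS bound tomato DNA.

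Fold enrichment is the authors' value for the number of fragments over the highest point of a peak (its summit) over the background expected there, with 1 added to each. The number of fragments and the background were recovered from the deposited fold and p of each peak, and each fragment number carries counting error only. On chromosome 4 the median peak had a fold of 4.33 (quartiles 3.37 and 6.21), from 30 fragments at the summit over a background of 6.11. On the other 11 chromosomes the median fold was 4.33 as well (quartiles 3.38 and 6.15), also from 30 fragments over 6.11. The median width was 312 bp on chromosome 4 and 313 bp on the others. The typical peak of chromosome 4 thus had the strength and width of the typical peak elsewhere, and the values below concern position, the strongest peaks and spacing.

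Chromosome 4 carried 88.1 peaks per Mb over a span of 64.4 Mb (exact Poisson 95% interval 85.9 to 90.5), against 84.4 on the other 11 chromosomes together. The ratio of these densities was 1.04 (exact conditional 95% interval 1.02 to 1.07). Chromosomes 6, 3 and 2 were denser, and chromosome 4 held place 4 of 12. Its neighbours in that order were chromosome 2, at 91.5 per Mb (89.0 to 94.1), and chromosome 8, at 85.6 (83.4 to 87.9), and the interval of chromosome 4 overlaps both. These intervals count peaks as independent, whereas over the 64 full 1 Mb windows of chromosome 4 the counts had a variance 17.9 times their mean, so they are too narrow. A single chromosome set against 11 cannot give an exact permutation p below 0.0833, and no test of the difference was made.

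**Figure D1:**
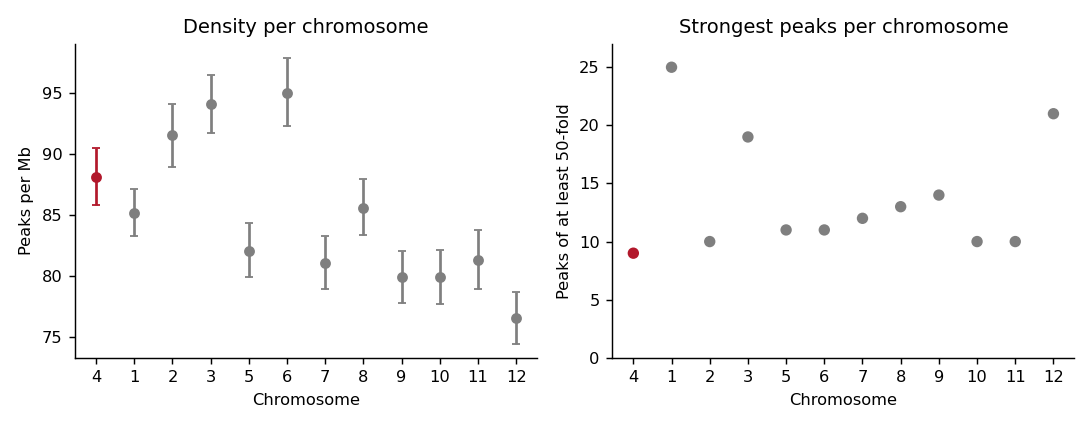
Left, SlWUS peaks per Mb of each chromosome with exact Poisson 95% intervals (counting error only; the axis does not start at 0). Right, the number of peaks of at least 50-fold on each chromosome. Chromosome 4, in red at the left of each panel, held place 4 in density with 88.1 peaks per Mb and had the fewest peaks of at least 50-fold, 9, a place that does not hold at 45-fold.

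Along chromosome 4 the peaks fell into a dense short end, a sparse stretch, a long middle of moderate density and a dense far end. The first 6 Mb held 791 peaks at 132 per Mb. From 8 to 11 Mb there were 68 peaks, at 22.7 per Mb (exact Poisson 95% interval 17.6 to 28.7). From 11 to 51 Mb the density was 69.4 per Mb, with single 1 Mb windows between 26 and 98 peaks. Density was 112 per Mb from 51 to 55 Mb, where each window held at least 105 peaks. From 55 Mb to the end it was 153 per Mb. That last stretch covered 14.6% of the span and held 25.4% of the peaks.

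Set against the other chromosomes in 10 equal parts of the span, chromosome 4 took its lowest place in the part from 10% to 20%, at 6443772 to 12887543. The density there was 49.5 per Mb (exact Poisson 95% interval 44.2 to 55.2), against 67.6 in the same part of the other 11 pooled. Only chromosome 1 was lower there, with 45.5, and the highest was chromosome 11 with 91.2. The part from 30% to 40%, at 19331315 to 25775086, was the one in which chromosome 4 was the densest of the 12, with 72.6 peaks per Mb against a range of 37.9 to 69.1 on the others. From 80% to 90% it had 133 peaks per Mb, at place 4 of 12, and in the last 10% it had 151, at place 3 after chromosomes 8 and 9.

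The outer 10% at each end of chromosome 4 held 1796 peaks, or 139 per Mb, against 1822 peaks and 70.7 per Mb in the central zone, which runs from 30% to 70% of the span. The ratio of these densities was 1.97 on chromosome 4, and it ran from 1.15 on chromosome 2 to 2.43 on chromosome 11 among the others. Chromosome 4 therefore held place 7 of 12 in this contrast. The end at high coordinates was 1.18 times as dense as the end at low coordinates, a ratio that ranged from 0.868 to 2.40 elsewhere.

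**Figure D2:**
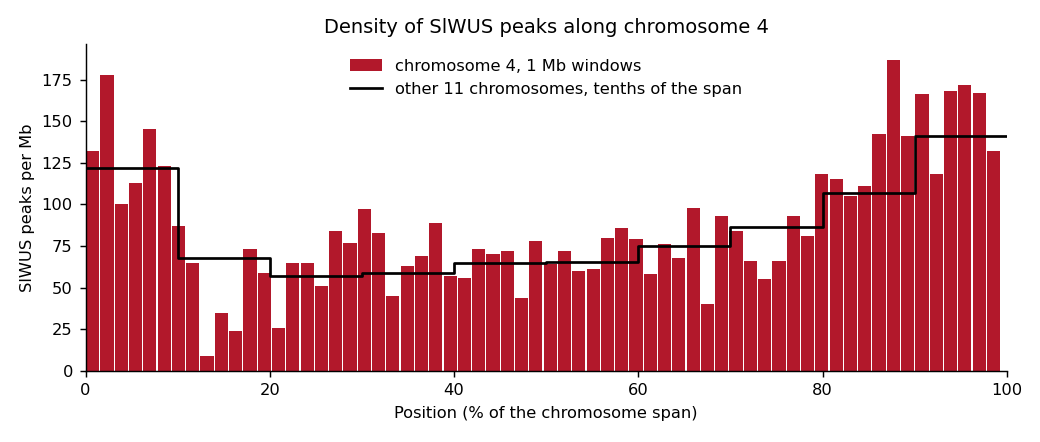
SlWUS peaks per Mb against position, as percent of the chromosome span. Red bars are the 64 full 1 Mb windows of chromosome 4 and the black line is the density of the other 11 chromosomes pooled in 10 equal parts of their spans. The bars drop to 9 peaks in the sparse stretch and reach 187 in the densest window near the far end.

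The window from 56000001 to 57000000 held 187 peaks (exact Poisson 95% interval 161 to 216), against a median of 78.5 in the windows of chromosome 4 and of 73 in the 702 full windows of the other 11 chromosomes. It was the highest of 766 windows counted from the origin of each chromosome. The window was singled out for this count, so the interval describes counting error and does not test the rank. The rank also depends on where windows begin. With windows moved by 500000 bp, the parts around it held 174 peaks (55500001 to 56500000) and 164 peaks (56500001 to 57500000). The densest window of chromosome 4 was then the one from 61500001 to 62500000, with 178. A 1 Mb window placed freely reached 200 peaks on chromosome 4, starting at 55777489. On chromosome 5 such a window, starting at 3344024, reached 210.

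The crowding in that window came from peaks of ordinary strength. Its median fold was 4.28 (quartiles 3.48 and 5.68), against 4.33 in the rest of chromosome 4. Of its 187 peaks, 10 had at least 10-fold enrichment, which is 5.35% (exact binomial 95% interval 2.59 to 9.61%), against 9.48% in the rest of the chromosome. Over all 12 chromosomes 9.23% of peaks reached 10-fold, a value inside that interval. The peaks of the window were a median of 331 bp wide and together covered 73.3 kb. By covered length the window held place 4 of the 766.

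Peaks were spread unevenly within the window. Its 10 parts of 100 kb held between 10 and 27 peaks, the fewest from 56000001 to 56100000 and the most from 56700001 to 56800000. The part from 56700001 tied with 62100001 to 62200000 as the fullest 100 kb of chromosome 4, while the fullest on the other chromosomes held 32. Neighbouring summits in the window were a median of 2656 bp apart, against 5636.5 bp in the rest of the chromosome. Distances of 52.0 kb, from the summit at 56465887 to that at 56517903, and of 50.6 kb, from 56068036 to 56118609, also lay inside it.

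The 5 strongest peaks of the window lay between 56038657 and 56990073, with none of the 5 between 56523867 and 56989668. The strongest, from 56521959 to 56523867, had 353 fragments over a background of 4.83, a fold of 60.7 once 1 is added to each. Those from 56038657 to 56039331 and from 56317196 to 56317766 had 220 and 151 fragments, at 31.1-fold and 25.96-fold. The next, from 56266805 to 56267307, had 152 fragments over 6.98 and a fold of 19.2. The last of the 5, from 56989668 to 56990073, had 293 fragments, more than the second, but a fold of 19.1, because its background was 14.4.

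That last peak lay in a stretch of raised background at the end of the window. A background of at least 2 times the median of all peaks was found at 18 peaks of chromosome 4, or 0.317%, against 0.225% over the 12 chromosomes. Of these 18, 9 were inside the window, all between 56946617 and 56999481, and 1 more lay just beyond it from 57008170 to 57008459. In the last 100 kb of the window the median background was 12.2 fragments and the median summit 51 fragments, against 6.03 and 29 in the rest of the window. The 19 peaks of this part had a median fold of 3.87, and those of the rest of the window 4.29. Without these 19 peaks the window held 168. The part of the raised background in the number of peaks was not tested.

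The longest stretch of chromosome 4 without a peak ran from 8445636 to 9124031, over 678.4 kb. It was the second longest of the 12 chromosomes, after 1177 kb on chromosome 11, and chromosome 10 followed with 661 kb. The longest stretch of each other chromosome was between 364 kb on chromosome 3 and the value of chromosome 11. The next on chromosome 4 was 327 kb long, from 13772955 to 14100080. Others of over 200 kb lay from 47669372 to 47963817 and from 39928285 to 40191777. In all, 7 stretches of chromosome 4 were longer than 200000 bp, against 3 to 15 on the other chromosomes. Stretches over 100000 bp made up 9.56% of its span, within the range of 6.57 to 13.1% elsewhere.

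The peaks on either side of the longest stretch were ordinary. The last before it, from 8445265 to 8445635, had 33 fragments over a background of 5.68 and a fold of 5.09. It was one of a close pair, with a peak of 5.52-fold from 8444524 to 8444812 whose summit was 836 bp away. The first after it, from 9124032 to 9124283, had 24 fragments over 4.08 and a fold of 4.93. The second, at 2.85-fold, had its summit 2098 bp further on. Further summits then followed at distances of 6101 and 2922 bp.

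The surroundings were sparse as well. The 1 Mb before the stretch held 32 peaks and the 1 Mb after it held 37. The median window of chromosome 4 held 78.5. The stretch itself fills much of the 1 Mb window from 8000001 to 9000000, which held 9 peaks (exact Poisson 95% interval 4.12 to 17.1). Of these, 4 had summits between 8004966 and 8011618. The next window, which includes the end of the stretch, held 35 and the one from 10000001 to 11000000 held 24. The stretch lies inside the longest run of chromosome 4 without a peak of 20-fold. That run spans 3.62 Mb, from the summit at 7288771 to that at 10911925, and holds 101 weaker peaks. Over chromosome 4, 2.095% of peaks reached 20-fold. The longest such run of the other chromosomes was between 2525 kb on chromosome 12 and 5571 kb on chromosome 5. Background was low around the stretch too. The lowest background in the list, 4.08 fragments, was found at 33 of the 68 peaks from 8 to 11 Mb (48.5%, exact binomial 95% interval 36.2 to 61.0%). Over the whole of chromosome 4 it was found at 7.29%, and on the other 11 chromosomes at 7.60%. Each of the 12 chromosomes had this same lowest value. In the window from 10000001 it was found at 21 of 24 peaks. Whether reads could be placed in this region was not analysed here, so fewer bound sites and fewer placeable reads cannot be told apart.

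The share of peaks of at least 10- and 20-fold on chromosome 4 was close to that of all chromosomes. At least 10-fold enrichment was reached by 531 of its peaks, or 9.35% (exact binomial 95% interval 8.604 to 10.1%), against the 9.23% of all 12 chromosomes. At least 20-fold was reached by 119, or 2.095%, against 1.99%. Only 9 peaks reached 50-fold, or 0.158% (0.0725 to 0.301%), against 0.252%. The number was the lowest of the 12 chromosomes, where the others had 10 to 25, but its interval includes the value of all chromosomes, so the share is not shown to be low. The threshold of 50-fold fell between the peaks from 21747231 to 21747700, at 51.7-fold, and from 22746029 to 22746453, at 48.9-fold, whose counting intervals overlap. From 45- to under 50-fold there were 7 peaks, so a limit of 45-fold, chosen after seeing the data, would give 16 and place 6 of 12.

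**Figure D3:**
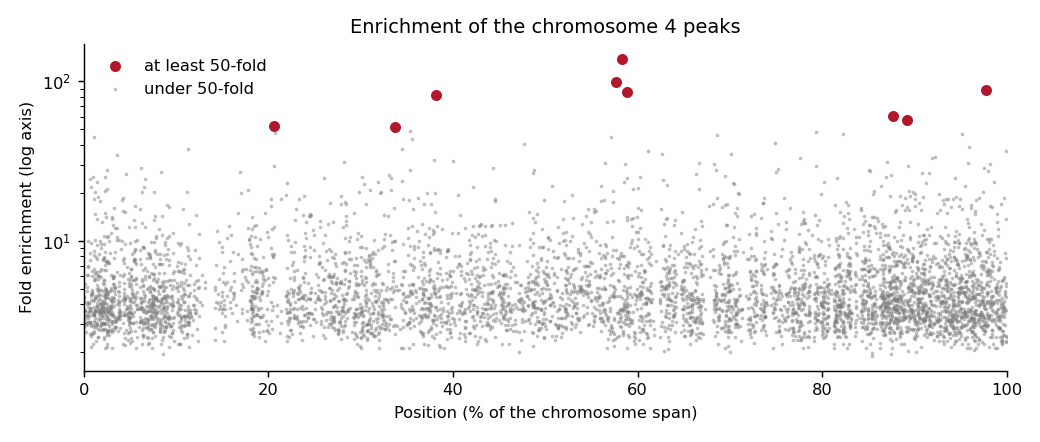
Fold enrichment (log axis) of each of the 5680 chromosome 4 peaks against position, as percent of the chromosome span. Red points are the 9 peaks of at least 50-fold, of which 3 lie close together near 58% of the span. The thin part that begins near 12% is the sparse stretch from 8 to 11 Mb.

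The strongest peak of chromosome 4, from 37548754 to 37549266, had 1165 fragments at its summit (exact Poisson 95% interval 1099 to 1234) and a background of 7.42, and a fold of 138 by the same formula. The next in strength, from 37156762 to 37157264, had 790 fragments and a fold of 99.1. Another of them, from 37913057 to 37913556, had 567 fragments and a fold of 85.3. These 3 peaks lay within 756 kb of each other in the central zone. The closest 3 peaks of at least 50-fold spanned between 136 kb on chromosome 1 and 3882 kb on chromosome 5 elsewhere, and chromosome 4 held place 5 of 12 in this order. The same 1 Mb held 3 more peaks above 20-fold, from 37730054 to 37730565, from 37798171 to 37798572 and from 37893512 to 37893969, at 23.2-, 30.2- and 24.8-fold. It held 86 peaks in all, of which 6 reached 20-fold, against 119 of the 5680 peaks of chromosome 4. The median fold of the 86 was 4.10, so most of the surrounding peaks were of ordinary strength. This 1 Mb was singled out for its strongest peaks, and the difference was not tested.

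Of the other 6 peaks of at least 50-fold, 3 lay beyond 55 Mb, in the dense far end with 25.4% of the chromosome's peaks. The strongest of the 3, from 62955242 to 62955753, had 611 fragments and a fold of 88.9. The peak from 56521959, described above with the dense window, and the one from 57494346 to 57495217, at 57.5-fold with 416 fragments, were less than 1 Mb apart. A peak from 24592158 to 24592672 had 526 fragments and a fold of 82.1. The last 2 were those from 13282900 to 13283349, at 52.4-fold, and from 21747231, given above. The central zone held 5 of the 9, the distal zones 1 and the parts between them 3. These were 0.274%, 0.0557% and 0.145% of the peaks there, against 0.471%, 0.0860% and 0.231% on the other 11 chromosomes.

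The nearest neighbours of the very strong peaks were mostly of ordinary strength. The 9 were picked as the strongest, so weaker neighbours follow largely from that choice. No comparison with the neighbours of other peaks was made. The peak nearest to each of the 9 had a fold of between 2.98 and 12.2, with a median of 4.43, close to that of all peaks. The distance between the summits ran from 845 to 24520 bp. The 138-fold peak, for example, had 1165 fragments, against 36 at its nearest neighbour, a 4.39-fold peak 3195 bp before it. The closest pair of peaks that both exceeded 20-fold was 3809 bp apart, from 51094535 to 51095012 at 48.1-fold and from 51098354 to 51098791 at 29.6-fold. A further 3 such pairs lay within 10000 bp, and the other chromosomes had 2 to 6 each. In one of them the 52.4-fold peak from 13282900 had its summit 8613 bp from that of a 29.3-fold peak, from 13274281 to 13274713. The 85.3-fold peak likewise lay 19.6 kb from one of 24.8-fold.

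Peaks of at least 20-fold were not held to the middle of chromosome 4. There were 35 in the distal zones and 47 in the central zone, which are 1.95% and 2.58% of the peaks there. On the other 11 chromosomes these shares were 1.40% and 2.56%. The distal density of peaks of at least 20-fold was 1.49 times the central one, against 1.97 times for all peaks of chromosome 4. For peaks of at least 20-fold this ratio ran from 0.692 on chromosome 11 to 1.66 on chromosome 9 among the others. Neighbouring peaks of this strength were a median of 258 kb apart on chromosome 4, the shortest such distance of the 12 chromosomes, where the others ran from 315 to 542 kb. Their number per Mb, 1.847, was the second highest after chromosome 3, almost level with chromosome 12 at 1.845. No test of these differences was made.

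The share of strong peaks was highest in the sparsest windows, within overlapping intervals on chromosome 4. In the 12 full windows of chromosome 4 with at least 120 peaks, 8.42% of peaks reached 10-fold (exact binomial 95% interval 7.19 to 9.78%). The share was 9.73% in the 39 windows of 60 to under 120 peaks and 10.4% in the 13 sparser ones (7.97 to 13.2%). On the other 11 chromosomes the same classes gave 7.62, 9.93 and 11.1%, in the same order. The highest share of a single window was 30.8%, from 13000001 to 14000000, where 8 of only 26 peaks reached 10-fold (14.3 to 51.8%) and 3 reached 20-fold. The next was 25.0%, or 6 of 24 peaks, from 10000001 to 11000000. Both were picked as the highest of 64 windows. Sparse windows were also among the lowest, at 2.27% from 30000001 to 31000000 (1 of 44 peaks) and 2.86% from 9000001 to 10000000 (1 of 35).

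Width increased with enrichment. On chromosome 4 the median width was 264 bp below 3-fold, 279 bp from 3- to 5-fold and 351 bp from 5- to 10-fold. It was 413 bp from 10- to 20-fold, 455 bp from 20- to 50-fold and 512 bp above that. On the other 11 chromosomes the same classes had medians of 265, 276, 349, 417, 458 and 500 bp. The peaks of at least 10-fold were 1.44 times as wide at the median as the rest, 433 bp against 300 bp, and this ratio ranged from 1.39 to 1.503 elsewhere. Width and fold are read from the same pile of fragments, so they are not independent measures.

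**Figure D4:**
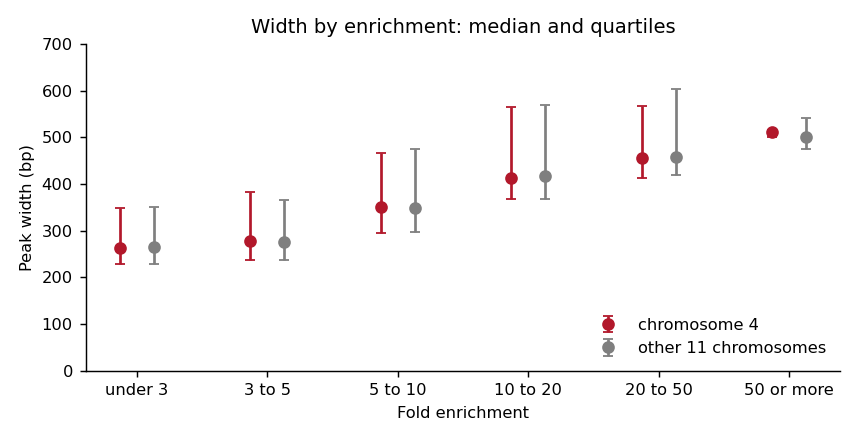
Peak width in bp by class of fold enrichment, as medians (points) with quartiles (bars). Chromosome 4, in red, is drawn left of the other 11 chromosomes pooled, in grey; medians run from 264 to 512 bp on chromosome 4 and from 265 to 500 bp on the others.

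Most of the strongest peaks of chromosome 4 were of similar width. Of the 9 peaks of at least 50-fold, 7 were between 450 and 515 bp wide, although their summits held 440 to 1165 fragments. The exceptions were the peak of the dense window, at 1909 bp, and the one from 57494346 to 57495217, at 872 bp. The 9 peaks had width quartiles of 500 and 515 bp, and the 156 of the other 11 chromosomes 476 and 541 bp. The 1909 bp peak was also the widest of the chromosome. Its summit, at 56522222, lay 263 bp from its start, so most of its length lay beyond the summit. The widest peak of the other chromosomes ran from 1860 bp on chromosome 11 to 2638 bp on chromosome 7.

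A width of at least 800 bp was found in 211 peaks of chromosome 4, which is 3.71% (exact binomial 95% interval 3.24 to 4.24%), against 3.74% over all 12 chromosomes. Of the 211, 59 or 27.96% reached 10-fold, against 9.35% of all peaks of chromosome 4 and 28.8% of the wide peaks of the other 11 chromosomes. Their median fold was 7.22. After the 1909 bp peak, the widest were 1775 bp, from 2716583 to 2718357 at 15.5-fold, and 1698 bp, from 45041048 to 45042745 at 4.83-fold. The last had only 27 fragments at its summit, so its width did not come with a high pile. The windows from 1000001 and from 4000001 held 11 wide peaks each and those from 56000001 and 57000001 held 10 each. Wide peaks made up 5.01% of the distal peaks of chromosome 4 (90) and 2.58% of the central ones (47), and on the other 11 chromosomes 4.80% and 2.53%.

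Neighbouring summits on chromosome 4 were a median of 5515 bp apart (quartiles 2108 and 13687 bp), against 5800 bp on the other 11 chromosomes (quartiles 2129 and 14061 bp). Distances of 500 to 2000 bp made up 23.2% of those on chromosome 4 (exact binomial 95% interval 22.1 to 24.3%), and 23.2% over all 12 chromosomes. Distances over 50000 bp made up 2.89% on chromosome 4 and 3.14% over all 12. Spacing on chromosome 4 was thus close to that of the whole list in both tails. The closest summits, 375 bp apart, belonged to the peaks from 60228343 to 60228586 and from 60228847 to 60229202, and no intervals overlapped.

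Spacing followed density. In the distal zones of chromosome 4 the median distance was 3902 bp and 27.5% of distances were 500 to 2000 bp. In its central zone the median was 8291 bp and the share 17.0%. The other 11 chromosomes gave 4093 bp and 28.6% distally, and 8178 bp and 18.1% centrally. In the dense window the share was 36.9% (exact binomial 95% interval 29.97 to 44.2%). A higher density shortens distances by itself, so these shares are not a separate measure of grouping.

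**Figure D5:**
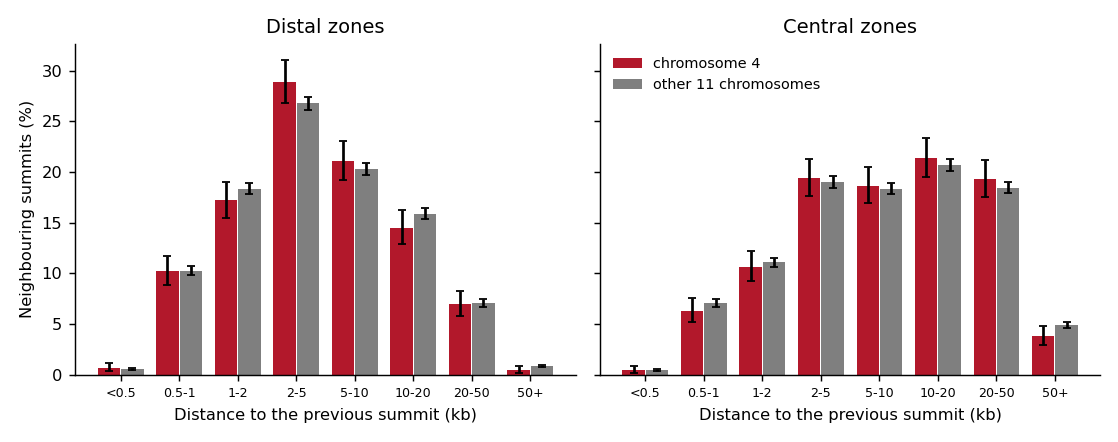
Percent of neighbouring summits in classes of distance (kb) in the distal zones (left) and the central zones (right), with exact binomial 95% intervals. Chromosome 4 is in red, left of the other 11 chromosomes in grey; distances of 2 to 5 kb are the most frequent class distally, at 28.9% on chromosome 4, while the central distances are spread over the classes from 2 to 50 kb.

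Runs of closely spaced peaks lay largely in the dense ends of chromosome 4, where density by itself shortens distances. Runs of at least 5 summits, each within 2000 bp of the next, occurred 24 times, and 14 of them lay beyond 55 Mb and 4 in the first 6 Mb, stretches that held 25.4% and 13.9% of the peaks. The longest runs had 7 peaks. There were 5 of these, of which 4 lay beyond 56 Mb, over lengths of 5.59 to 9.11 kb, and the remaining one lay from 47411724 to 47417894. One of the 4, from 56954709 to 56963816, lay in the stretch of raised background, with a median background of 11.4. Other chromosomes had longest runs of 6 to 9 peaks. The median fold within the 24 runs was between 2.71 and 7.68. The run from 674622 to 679037, at the short end, included the 45.02-fold peak from 674622 to 675162, while that from 56769863 to 56775449 had no peak above 4.30-fold.

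On chromosome 4, 3 windows of 20 kb held 11 peaks each, from 2780001 to 2800000, from 51180001 to 51200000 and from 56540001 to 56560000. Chromosome 9 also had 3 windows with at least 11 peaks, and 7 chromosomes had none. With at least 10 peaks chromosome 4 had 4 windows, against 0 to 5 on the others, and with at least 9 it had 9, against 2 to 13. The last of the 3 windows lies inside the dense 1 Mb. In the first, the 11 peaks had 19 to 54 fragments and folds of 2.65 to 7.29, and the intervals between their summits ran from 507 to 4831 bp. In the second the folds were 3.19 to 12.7, and in the third 2.69 to 7.45. These crowded windows were therefore built from peaks of about the median strength, with 1 peak of at least 10-fold among them. At the other extreme, 23 peaks of chromosome 4 (0.405%) had no neighbouring summit within 50000 bp on either side, against 0.223 to 0.509% on the other chromosomes.

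The first peak of chromosome 4 lay from 14662 to 15163, with 23 fragments and a fold of 4.14, and the last from 64437495 to 64437715, with 18 fragments and a fold of 2.52. The first full 1 Mb window held 132 peaks and the one from 1000001 held 178, the second highest count of the chromosome. The last full window, from 63000001 to 64000000, held 132. The part beyond 64000000, up to the last peak, held 51, at 117 per Mb. The first and last full windows were thus dense, but neither was the densest window of the chromosome. The genes, exons, introns and repeats at these positions and the sequence under the peaks were not analysed here.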

How the data were processed

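One SlWUS library and 1 input library of tomato are listed, and the peak list of the first was used. Bowtie2 2.2.5, MACS2 2.1.2 and ChIPseeker are named in the submitters' processing notes. Their settings, and how the input entered, are not given in the sources used. The build, SL4.0, was read from the sequence names, and positions are counted from 1. The fold in the deposited list is a ratio of the summit pileup to the local background. Each peak also has a −log10 p and a −log10 q, deposited by the authors. The deposited score, 10 times the −log10 q without its decimals in 100% of peaks, was left unused. No −log10 q was under 1.32.

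The pileup and background were solved from the Poisson p and the fold, which is (pileup + 1)/(background + 1), with a tolerance of 0.001 on −log10 p. A whole pileup was found for 65452 of 65452 peaks, and the largest error was 0.000117. The total depth of the libraries is unknown. A chromosome's span was the end of its last peak. Exact 95% Poisson, binomial or conditional intervals cover counting error alone, and fragments may not be independent molecules. No test between samples, chromosomes or windows was made, because there is 1 library.

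The members, windows and thresholds were chosen with earlier results of these data known. Peaks named are those of at least 50-fold, the 5 strongest of the dense window, those at the edges of the longest stretch without peaks, the 3 widest and the closest pairs above 20-fold. Others, such as crowded or extreme windows, were named after their values were seen. Alternatives were a −log10 q of at least 5, other spans, windows, zones and thresholds. The scripts were tested on simulated data. Tools were scipy 1.17.1, numpy 2.4.6, matplotlib 3.10.9 and pandas 2.3.3 in Python 3.11.15.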

Additional observations from a re-analysis of the deposited data

How the results depend on the processing

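Of 21 alternatives tried over 9 results, 13 gave values inside the interval of the reported value or equal to it. The density ratio of chromosome 4 to the other 11 stayed between 1.04 and 1.06 under its 3 alternatives. With a −log10 q of at least 5, which 4545 of the 5680 peaks passed, the window from 56000001 to 57000000 held 158 peaks and remained the densest of the chromosome, and the stretch without a peak was the same. The densest window moved to 61500001 to 62500000 when windows were shifted by 500000 bp. That alternative is counted among the 13 because only its ratio to the median window was compared, 2.34 against 2.38. It does not show that the window from 56000001 stayed the densest. Placing windows freely and the limit of 45-fold were chosen after seeing the data.

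The others moved with fewer peaks or a redefined quantity. With a limit of 45-fold in place of 50-fold, chromosome 4 had 16 peaks in place of 9 and was no longer the chromosome with the fewest. Measured between summits, the longest stretch was 678682 bp. With the outer 20% at each end as distal zones, the distal density was 1.63 times the central one. The median width of peaks of at least 20-fold was 1.49 times that of the rest. The median distance was 7014.5 bp between summits with a −log10 q of at least 5, and 5115 bp between peak edges. The share of distances from 500 to 1000 bp was 8.80%, and that from 500 to 2000 bp was 18.9% at the stricter threshold.

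The median pileup of 30 fragments limits how well peaks of ordinary fold can be ranked. Chromosome ends beyond the last peak are not counted. No paired analysis was possible because there is 1 library of each kind and no test.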
